A study of Mus musculus with 8 samples.

Results

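The MHC class II genes followed here are 10 genes: *Ciita*, *Cd74*, *H2-Aa*, *H2-Ab1*, *H2-Eb1*, *H2-DMa*, *H2-DMb1*, *H2-DMb2*, *H2-Oa* and *H2-Ob*. They were chosen by name, out of 21938 protein-coding genes. H3K9ac, the acetylation of lysine 9 of histone H3, marks the start sites of genes that are active or ready for transcription. It was measured by chromatin immunoprecipitation and sequencing (ChIP-seq) in whole bone marrow cells of C57BL/6 mice that all carried the *Nup98-HOXD13* transgene, a fusion gene that gives mice a myelodysplastic syndrome and leukemia. The mice carried either *GFI1-36S*, the common human form of the transcriptional repressor GFI1, or *GFI1-36N*, a variant form, or *GFI1-KD*, in which GFI1 is expressed at a reduced level, and were given vehicle (no curcumin in the labels) or curcumin at 20 mg/kg by weekly intraperitoneal injection.

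There was 1 library for each genotype and treatment, 6 in all, so no difference within a genotype has a replicate check. Curcumin was not tested over the genotypes taken as 3 pairs, where an exact sign permutation cannot go below p = 0.25, and no fit with genotype as a term was run. The labels give neither the age nor the number of mice behind a library, nor the promoter that drives the transgene. By the names of the deposited lists, the *GFI1-36N* vehicle library came from a heterozygote and the *GFI1-36N* curcumin library from a homozygote, so zygosity and treatment cannot be told apart in that pair. The names of both *GFI1-36S* lists carry the treatment opposite to the label. The labels were followed, and the direction of each *GFI1-36S* pair depends on them.

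MHC class II molecules present peptides taken up from outside the cell to CD4+ T cells, and are made mainly by B cells, dendritic cells and macrophages. The promoters of class II genes hold a shared X-Y module bound by a standing complex of RFX, CREB and NF-Y proteins, and the coactivator CIITA binds that complex and sets the level of transcription. *Ciita* itself has several promoters: pI is used by dendritic cells and macrophages, pIII by B cells and plasmacytoid dendritic cells, and pIV by cells exposed to interferon gamma. All class II genes of the set except *Ciita* and *Cd74* lie in 1 stretch of the MHC on chromosome 17 (chr17:34092340-34316674, mm10).

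A promoter was taken as 1 kb on each side of any annotated start site, and each gene was given the rank of its strongest promoter peak, by fold enrichment over the local background, among all genes with a promoter peak in that library, from 0 (no peak) to 100 (highest). The lists held 20354 peaks in the *GFI1-36S* curcumin library and 30784 to 49213 in the others, and 44.3% to 53.8% of all protein-coding genes had a promoter peak. The *GFI1-36S* curcumin library stood apart. None of 8 monocyte and none of 8 neutrophil marker genes had a promoter peak in it, against 7 to 8 and 4 to 8 in the other libraries, while 7 of 8 T cell markers had one, against 0 to 4. It was also the only library with peaks on chromosome Y (3 peaks) and the only one with no peak at *Xist*. Since peak lists hold only what passed a threshold, a missing peak says that enrichment was not called at this depth, not that the mark was absent. Fewer cells of a type and less H3K9ac per cell cannot be told apart in whole marrow.

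The class II genes carried weak promoter peaks. In *GFI1-36S* vehicle cells, 6 of 10 had one (51.9% of all genes), in *GFI1-36N* vehicle cells 9 of 10 (51.7%), and in *GFI1-KD* vehicle cells 10 of 10 (53.6%). With curcumin, the counts were 2 of 10 in *GFI1-36S* (44.3%), 6 of 10 in *GFI1-36N* (53.8%) and 5 of 10 in *GFI1-KD* cells (50.6%). No member had a promoter peak with curcumin that it lacked with vehicle. Of all genes with a promoter peak in either library of the pair, 1.99% did in *GFI1-36S*, 5.73% in *GFI1-36N* and 1.19% in *GFI1-KD* cells. For so few members, none is near these shares. If the *GFI1-36S* treatments were exchanged, 4 members (*H2-Ab1*, *H2-DMb1*, *H2-DMb2* and *H2-Ob*) would have a peak with curcumin only. *H2-DMa* and *H2-Oa* had a promoter peak in all 6 libraries, *H2-DMb1*, *H2-DMb2* and *H2-Ob* in 5, *H2-Aa* and *H2-Ab1* in 3, *Cd74* and *H2-Eb1* in 2, and *Ciita* in 1. Apart from *H2-DMa*, whose strongest promoter peak belonged equally to its neighbour *Brd2*, no member was ranked above 24.98 of 100 in any library.

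**Figure D1:**
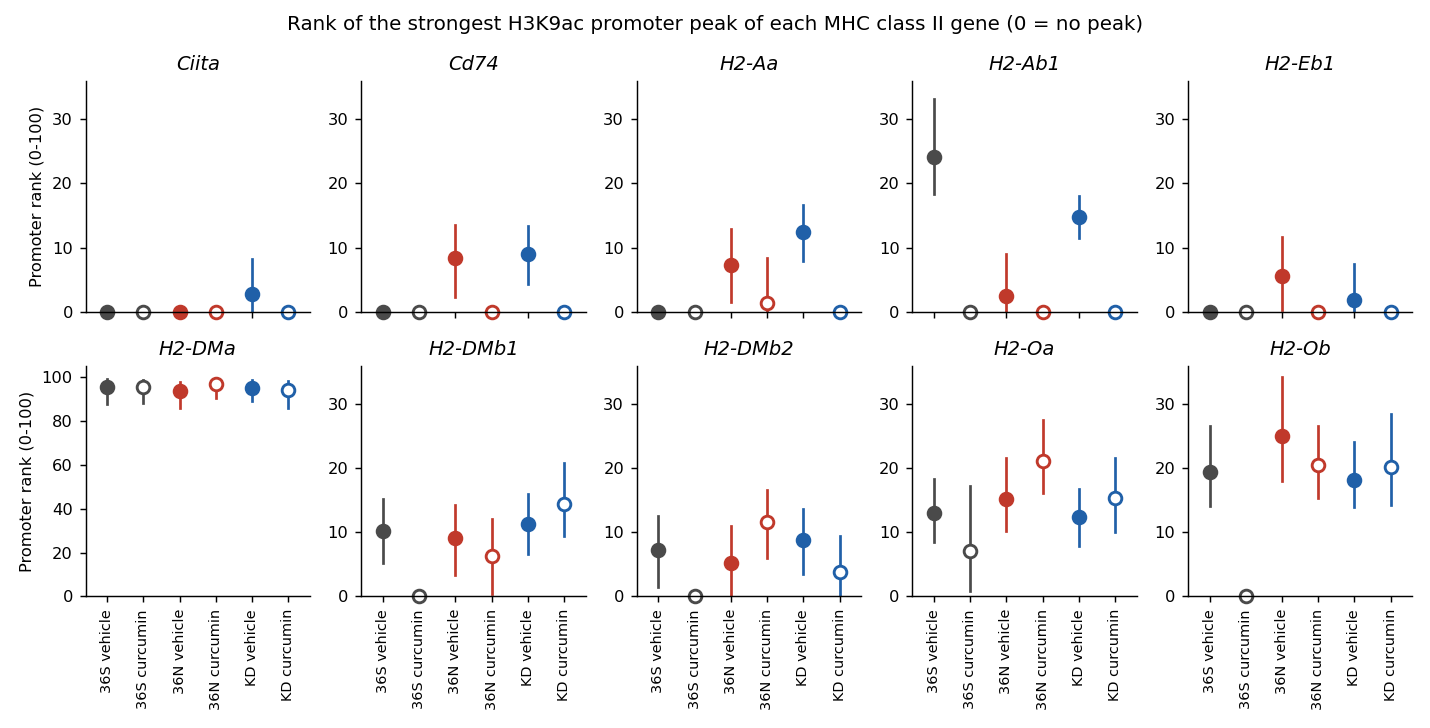
Promoter rank (0 to 100, 0 for no peak) of each class II gene in the 6 libraries, 1 panel per gene, filled points for vehicle and open points for curcumin, with the vertical axis of *H2-DMa* on its own scale. Lines are 95% intervals for counting error of the summit fragments only. *Ciita*, *Cd74*, *H2-Ab1* and *H2-Eb1* sit at 0 in all 3 curcumin libraries, and *H2-DMa* sits at 93.6 to 96.9 throughout.

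Within the 1 kb window, the genes separated by role. *H2-Aa*, *H2-Ab1* and *H2-Eb1* encode the chains that form the peptide groove of the I-A and I-E molecules, and *Cd74* encodes the invariant chain that fills the groove until a peptide is loaded. For these 4 genes, 9 of 12 pairs of a gene and a vehicle library had a promoter peak, and 1 of 12 with curcumin. The peptide-loading genes encode H2-DM, which exchanges the invariant chain remnant for peptides (*H2-DMa*, *H2-DMb1*, *H2-DMb2*), and H2-O, which holds H2-DM back (*H2-Oa*, *H2-Ob*). For these 5 genes, 15 of 15 pairs had a peak with vehicle and 12 of 15 with curcumin, and all 3 missing ones were in the *GFI1-36S* curcumin library. In that library *H2-DMa* counted only by its outer start site, where its top peak is also that of *Brd2*, and had no peak at its inner start site. Without the *GFI1-36S* pair, the counts were 8 of 8 with vehicle and 1 of 8 with curcumin for the first group, and 10 of 10 under both treatments for the second. Of all protein-coding genes, 51.7% to 53.6% had a promoter peak with vehicle and 44.3% to 53.8% with curcumin. The contrast between the groups depended on the annotation and on the window. With start sites of the comprehensive GENCODE annotation, 8 members had a promoter peak in *GFI1-36N* curcumin cells, *H2-Ab1* and *H2-Eb1* among them. In *GFI1-KD* curcumin cells 6 members had one. With windows of 3 kb the first group had 9 of 12 with vehicle and 6 of 12 with curcumin, and with windows of 500 bp 9 of 12 and 0 of 12, while the second had 15 and 12 of 15 in both. With the summit required inside the 1 kb window the counts were 7 and 1 of 12 in the first group and 12 and 11 of 15 in the second. Genes in 1 library share its depth and its cells, so these counts are descriptions of 6 libraries, and this split into roles was made with the values known.

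The promoter sequences show what the genes share. RefSeq promoters (GRCm38.p6, 250 bases before to 50 after the start site) were matched for 7 of the 10 members, by 8 promoters. The stretch from 150 to 31 bases before the RefSeq start is printed 5′ to 3′ on the gene's strand. It is given for the 6 genes in which it holds a match to one of the motifs marked here. Capitals mark the core of the Y box (ATTGG), an X box (AG, any 2 bases, AC, any 1 base, GATG) and a wider X box (CTA, any 2 bases, AAC, any 2 bases, ATGATG) that was chosen after the sequences were read. The X box and the wider X box overlap where both match.
H2-Aa: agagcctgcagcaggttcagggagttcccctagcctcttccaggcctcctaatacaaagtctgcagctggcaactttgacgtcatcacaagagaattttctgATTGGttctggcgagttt
H2-Eb1: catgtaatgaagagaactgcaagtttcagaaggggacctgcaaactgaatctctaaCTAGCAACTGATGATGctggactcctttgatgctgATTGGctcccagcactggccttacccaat
H2-Oa: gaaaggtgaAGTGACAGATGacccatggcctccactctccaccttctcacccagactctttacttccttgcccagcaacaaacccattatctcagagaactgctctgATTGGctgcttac
H2-Ob: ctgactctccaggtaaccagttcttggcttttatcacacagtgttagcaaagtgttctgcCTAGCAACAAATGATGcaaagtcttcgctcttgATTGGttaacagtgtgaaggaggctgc
H2-DMb1: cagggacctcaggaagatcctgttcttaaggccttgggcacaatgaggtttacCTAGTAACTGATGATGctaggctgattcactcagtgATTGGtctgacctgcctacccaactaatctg
H2-DMb2: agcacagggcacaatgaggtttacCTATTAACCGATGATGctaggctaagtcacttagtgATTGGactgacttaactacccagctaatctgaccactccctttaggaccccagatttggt
They lie on chromosome 17 at chr17:34287854-34287973 on the minus strand (*H2-Aa*) and, on the plus strand, at chr17:34305717-34305836 (*H2-Eb1*), chr17:34092229-34092348 (*H2-Oa*), chr17:34238755-34238874 (*H2-Ob*), chr17:34153041-34153160 (*H2-DMb1*) and chr17:34145099-34145218 (*H2-DMb2*). ATTGG was found on either strand in 37.4% of all 32851 promoters of the table and in 7 of the 8 member promoters. The X box was found in 0.968% and in 3, and the wider X box in 5 promoters (0.0152%) of the whole table, 4 of them of members. An X2 box (TG, any 1 base, GTCA), searched but not marked, was in 15.4% and in 2 member promoters (*H2-DMa*, *H2-Oa*). An interferon-gamma activated site (TTC, any 3 bases, GAA), also not marked, was in 8.3% and in 1 (*H2-DMb2*). The patterns were fixed, so X boxes that depart from them were not counted. A promoter without a match cannot be said to lack an X box. Of the motifs searched, *H2-Aa* matched only the Y box core. A more divergent X box nearer the Y box of *H2-Oa* was not searched for. The X box match of *H2-Oa* (at position −141 from the start) lay far from its Y box (at −43), unlike those of the other 4 genes. In those 4, the distance from the first base of the wider X box to the first base of the Y box was 33 bases in *H2-Ob*, 35 in *H2-Eb1* and 36 in *H2-DMb1* and *H2-DMb2*. *H2-Eb1* and *H2-DMb1* thus share the same module and spacing to within 1 base, yet the first had a promoter peak in 2 libraries and the second in 5.

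*Ciita* (chr16:10480059-10528418) carried one promoter peak, in *GFI1-KD* vehicle cells, and none in the other 5 libraries. The peak (chr16:10489618-10489975, 358 bp) lay over pIV, with its summit 17 bp downstream of the first pIV start site, in an exon. It held 25 fragments at the summit, a fold enrichment of 3.58 and a −log10 q of 4.89, and ranked 2.69 (95% counting interval 0.025 to 8.22), which placed it at place 11426 from the top among the 11766 genes with a promoter peak. No peak was found within 1 kb of the pI start sites, 8220 bp upstream of pIII, or of pIII, 1502 bp upstream of pIV, and no other peak lay anywhere in the 48360 bp of the gene in any library. In the other 5 libraries the nearest peak to any *Ciita* start site was 38208 to 51923 bp away. With a minimum −log10 q of 5 the pIV peak was not retained.

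*Cd74* (chr18:60803848-60812652) had a promoter peak in *GFI1-36N* vehicle cells, with 33 fragments, a fold enrichment of 4.89 and a rank of 8.33, and in *GFI1-KD* vehicle cells, with 44 fragments, 5.42-fold enrichment and a rank of 9.04. The other 4 libraries had none. In *GFI1-KD* vehicle cells this was a single peak of 1907 bp that started at the start site and reached into the gene, with its summit 1708 bp inside the gene and so beyond the 1 kb window, while in *GFI1-36N* vehicle cells a peak of 624 bp lay wholly downstream of the start. At the 1708 bp site *GFI1-36N* cells also had a peak, of 31 fragments with vehicle and 17 with curcumin (height ratio 0.679, 0.353 to 1.27).

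A further *Cd74* site lay in an intron, 3794 bp from the start site. It carried a peak in 5 of 6 libraries, with summit heights over the genome background of 6.82 in *GFI1-36S* vehicle, 6.08 in *GFI1-36N* vehicle, 7.33 in *GFI1-36N* curcumin, 8.16 in *GFI1-KD* vehicle and 9.50 in *GFI1-KD* curcumin cells, and none in *GFI1-36S* curcumin cells. The ratio of curcumin to vehicle at this site was 1.20 (95% counting interval 0.734 to 1.97) in *GFI1-36N* and 1.17 (0.765 to 1.77) in *GFI1-KD* cells. The interval held 1 in both pairs. Between these sites, 2544 bp from the start, the height was lower with curcumin in *GFI1-KD* cells (43 against 18 fragments, ratio 0.519, 0.282 to 0.919). That interval holds the median ratio of all genes with a promoter peak in both *GFI1-KD* libraries (−0.18 in log2), so the site is not separable from it. At this site *GFI1-36N* cells had a peak with curcumin and none with vehicle.

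*H2-Ab1*, which encodes the beta chain of I-A, had the highest promoter rank of the groove chains, 24.2 in *GFI1-36S* vehicle cells, against 2.47 in *GFI1-36N* and 14.8 in *GFI1-KD* vehicle cells and no promoter peak in the 3 curcumin libraries. Its strongest H3K9ac lay inside the gene, 1548 bp downstream of the start site, in all 6 libraries. Summit heights there were 14.9, 6.59 and 15.0 with vehicle in *GFI1-36S*, *GFI1-36N* and *GFI1-KD* cells, and 4.99, 7.33 and 5.66 with curcumin. The curcumin library was lower than the vehicle library in *GFI1-36S* cells (ratio 0.335, 0.200 to 0.543) and in *GFI1-KD* cells (0.377, 0.238 to 0.581), with counting intervals below 1, and not separable from it in *GFI1-36N* cells (1.11, 0.683 to 1.80). Over all genes with a promoter peak in both libraries, the median log2 height ratio was −0.78 in *GFI1-36S*, 0.32 in *GFI1-36N* and −0.18 in *GFI1-KD* cells.

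For *H2-Ab1*, the count of promoters with a peak depended on the window. In *GFI1-36N* curcumin cells the peak at the inner site started 64 bp beyond the 1 kb window, in *GFI1-KD* curcumin cells 252 bp beyond and in *GFI1-36S* curcumin cells 267 bp beyond. In *GFI1-36S* and *GFI1-KD* vehicle cells the peak was wide enough (1615 and 2493 bp) to reach into the window. With windows of 3 kb, 3, 8 and 7 of the 10 members had a promoter peak with curcumin in *GFI1-36S*, *GFI1-36N* and *GFI1-KD* cells, against 6, 9 and 10 with vehicle.

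*H2-Aa*, the alpha chain of I-A, had promoter peaks at ranks of 7.31 in *GFI1-36N* vehicle, 1.35 in *GFI1-36N* curcumin and 12.3 in *GFI1-KD* vehicle cells, with 31, 17 and 48 fragments at the summit. In the other 3 libraries the nearest peak to its start sites was 21824 to 22990 bp away. *H2-Eb1*, the beta chain of I-E, had ranks of 5.61 in *GFI1-36N* vehicle and 1.88 in *GFI1-KD* vehicle cells and no promoter peak elsewhere. Both genes were thus without a promoter peak in *GFI1-36S* cells under either treatment. A site inside *H2-Eb1*, 3889 bp from the start, carried a peak in 4 libraries, *GFI1-36S* vehicle, *GFI1-36N* curcumin and both *GFI1-KD* libraries, and the ratio of curcumin to vehicle in *GFI1-KD* cells was 0.793 (0.493 to 1.26). Strand was not recorded by ChIP-seq, and antisense genes overlap *H2-Eb1* (*Gm20513*) and *H2-Oa* (*BC051537*).

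**Figure D2:**
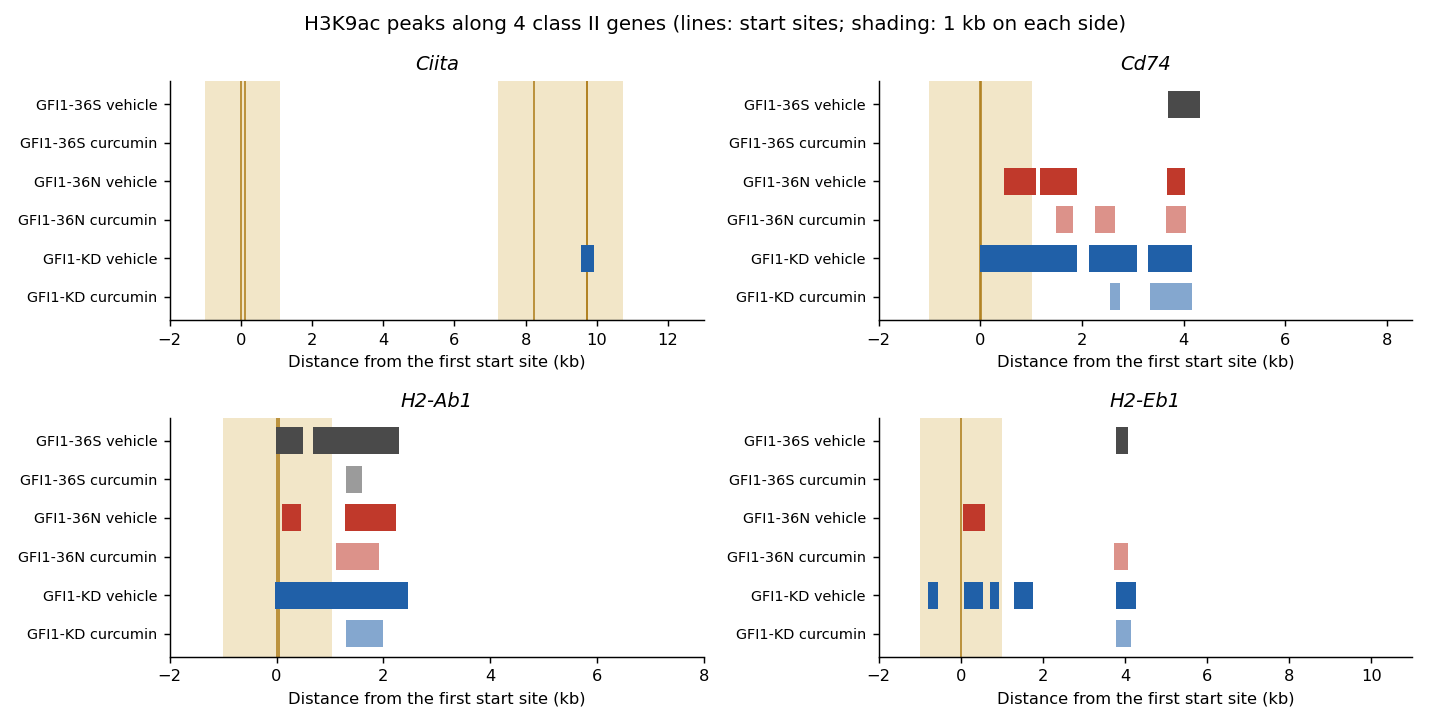
H3K9ac peaks (bars) along *Ciita*, *Cd74*, *H2-Ab1* and *H2-Eb1* in the 6 libraries, against the distance from the first start site (kb), with start sites as lines and the 1 kb on each side shaded. The peak near the *Cd74* start site is seen in 2 vehicle libraries, the one 3794 bp inside the gene in 5 libraries, and the *H2-Ab1* peak 1548 bp inside the gene in all 6.

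The H2-DM and H2-O genes kept a promoter peak under both treatments in *GFI1-36N* and *GFI1-KD* cells. *H2-Ob* ranked 19.4 in *GFI1-36S* vehicle, 24.98 in *GFI1-36N* vehicle, 20.5 in *GFI1-36N* curcumin, 18.2 in *GFI1-KD* vehicle and 20.1 in *GFI1-KD* curcumin cells, with a peak of nearly the same width each time (1506 to 1559 bp), and none in *GFI1-36S* curcumin cells. *H2-Oa* ranked 12.95, 15.3 and 12.3 with vehicle and 7.09, 21.2 and 15.3 with curcumin in *GFI1-36S*, *GFI1-36N* and *GFI1-KD* cells, and was the one member with a peak of its own at its start site in all 6 libraries. Its summit height in *GFI1-36N* cells was 1.48 times as high with curcumin as with vehicle (1.004 to 2.19). That interval also holds the median ratio of all shared promoters (0.32 in log2), and the intervals of its ranks overlapped.

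*H2-DMb1* ranked 10.2, 9.11 and 11.4 with vehicle in *GFI1-36S*, *GFI1-36N* and *GFI1-KD* cells, and 6.34 and 14.5 with curcumin in *GFI1-36N* and *GFI1-KD* cells. *H2-DMb2*, its close neighbour and near copy, ranked 7.19, 5.28 and 8.85 with vehicle and 11.6 and 3.75 with curcumin in the same order. Neither had a peak in *GFI1-36S* curcumin cells. The order of both genes between treatments was opposite in the 2 genotypes, and all intervals overlapped. Reads that fit both genes could have been split between them, which the deposited lists do not show. The strongest *H2-DMb2* peaks lay at or upstream of the first GENCODE start site (34143307), well upstream of the RefSeq start (34145249) that carries the printed X-Y module, and no peak covered the latter.

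*H2-DMa* ranked 95.3, 93.6 and 95.2 with vehicle and 95.2, 96.9 and 93.9 with curcumin in *GFI1-36S*, *GFI1-36N* and *GFI1-KD* cells, far above the other members. The annotation gives *H2-DMa* an outer start site next to that of *Brd2*, a bromodomain protein encoded on the opposite strand, and in all 6 libraries the top peak (4092 to 8375 bp wide) was the same peak as that of the *Brd2* promoter. At its inner start site alone, *H2-DMa* ranked 12.7, 17.3 and 19.8 with vehicle, 13.1 with curcumin in *GFI1-36N* and 22.3 with curcumin in *GFI1-KD* cells, and had no peak in *GFI1-36S* curcumin cells. Read at that site, *H2-DMa* lay among the other peptide-loading genes. By that reading 1 member, *H2-Oa*, had a promoter peak in the *GFI1-36S* curcumin library.

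**Figure D3:**
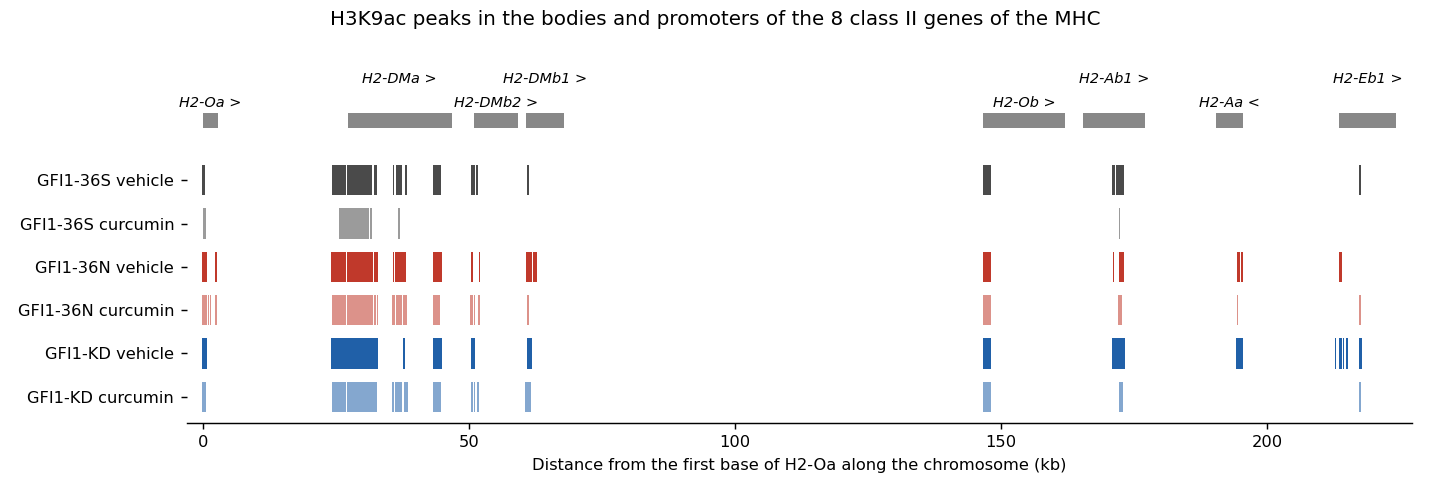
Peaks (bars) of the 6 libraries in the promoters and bodies of the 8 class II genes on chromosome 17, against the distance from the first base of *H2-Oa* (kb), with gene bodies in grey above and arrowheads for strand. The widest block is the peak shared by *H2-DMa* and *Brd2*, present in all 6 libraries, and *H2-Aa* holds the fewest peaks of the 8 genes, 4 over the 6 libraries.

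Over the whole class II stretch of 224335 bp, peaks covered 12.7%, 14.7% and 15.1% of the bases with vehicle and 8.44%, 14.2% and 12.5% with curcumin in *GFI1-36S*, *GFI1-36N* and *GFI1-KD* cells. Peaks covered 2.53%, 2.48% and 2.87% of all gene bodies with vehicle and 1.21%, 2.79% and 1.96% with curcumin, in the same order. The stretch also holds *Brd2*, *Psmb8*, *Psmb9*, *Tap1* and *Tap2*. Without *H2-DMa*, the bodies of the other 7 class II genes there were covered over 8.35%, 12.0% and 14.4% with vehicle and 1.49%, 8.45% and 7.79% with curcumin. With the treatments as labelled, coverage of the class II genes was lower with curcumin in all 3 pairs, and that of all gene bodies was lower in the *GFI1-36S* and *GFI1-KD* pairs and higher in the *GFI1-36N* pair. The *GFI1-36S* pair turns if its treatments are exchanged. The summits of all member peaks fell into 33 sites, of which 2 were seen in all 6 libraries (at the *H2-Oa* start site and inside *H2-Ab1*) and 11 in 1 library.

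The curcumin and vehicle libraries were then compared over all genes. In *GFI1-KD* cells, 5 of 10 members with a promoter peak under vehicle or curcumin had it with vehicle alone (6.73% of all such genes): *Ciita*, *Cd74*, *H2-Aa*, *H2-Ab1* and *H2-Eb1*. In *GFI1-36N* cells, 3 of 9 did (1.84%): *Cd74*, *H2-Ab1* and *H2-Eb1*. In *GFI1-36S* cells, 4 of 6 did (16.2%): *H2-Ab1*, *H2-DMb1*, *H2-DMb2* and *H2-Ob*. Weak peaks were missing more often at all genes. Among promoters ranked 25 or lower with vehicle, 25.8% had no peak with curcumin in *GFI1-KD* cells, against 5 of 9 members. The shares were 7.6% in *GFI1-36N* cells, against 3 of 8, and 54.9% in *GFI1-36S* cells, against 4 of 5. The members without the peak had vehicle ranks of 1.88 to 14.8 in *GFI1-KD*, 2.47 to 8.33 in *GFI1-36N* and 7.19 to 24.2 in *GFI1-36S* cells. These shares are thus not matched to the members' ranks, and shares at equal rank were not computed. In *GFI1-KD* and *GFI1-36N* cells none of the members that lacked the peak with curcumin was an H2-DM or H2-O gene.

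Where a member had a promoter peak in both libraries of a pair, no interval of its rank was separate from the other. This held for 2 members in *GFI1-36S*, for 6 in *GFI1-36N* and for 5 in *GFI1-KD* cells. Of all genes with a promoter peak in both libraries, 13.4% ranked wholly below and 5.32% wholly above in *GFI1-36S* cells. The shares were 2.25% and 4% in *GFI1-36N* cells, and 6.69% and 2.16% in *GFI1-KD* cells. Counted with the missing peaks at rank 0, 6 of 6 members ranked lower with curcumin in *GFI1-36S*, 6 of 9 in *GFI1-36N* and 7 of 10 in *GFI1-KD* cells. Of all genes with a promoter peak in either library, 69.1%, 39.9% and 62.9% did, in the same order. The median rank change was −8.71 for members and −6.61 for all such genes in *GFI1-36S* cells. It was −2.78 and 1.89 in *GFI1-36N* cells, and −2.28 and −2.34 in *GFI1-KD* cells. In *GFI1-KD* cells the members' median thus lay next to that of all genes. *Ciita*, *Cd74*, the groove chains, *H2-DMa* and *H2-DMb2* ranked lower there. *H2-DMb1*, *H2-Oa* and *H2-Ob* ranked higher, by 1.90 to 3.13 with overlapping intervals. Read at its inner start site instead, *H2-DMa* ranked higher with curcumin.

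**Figure D4:**
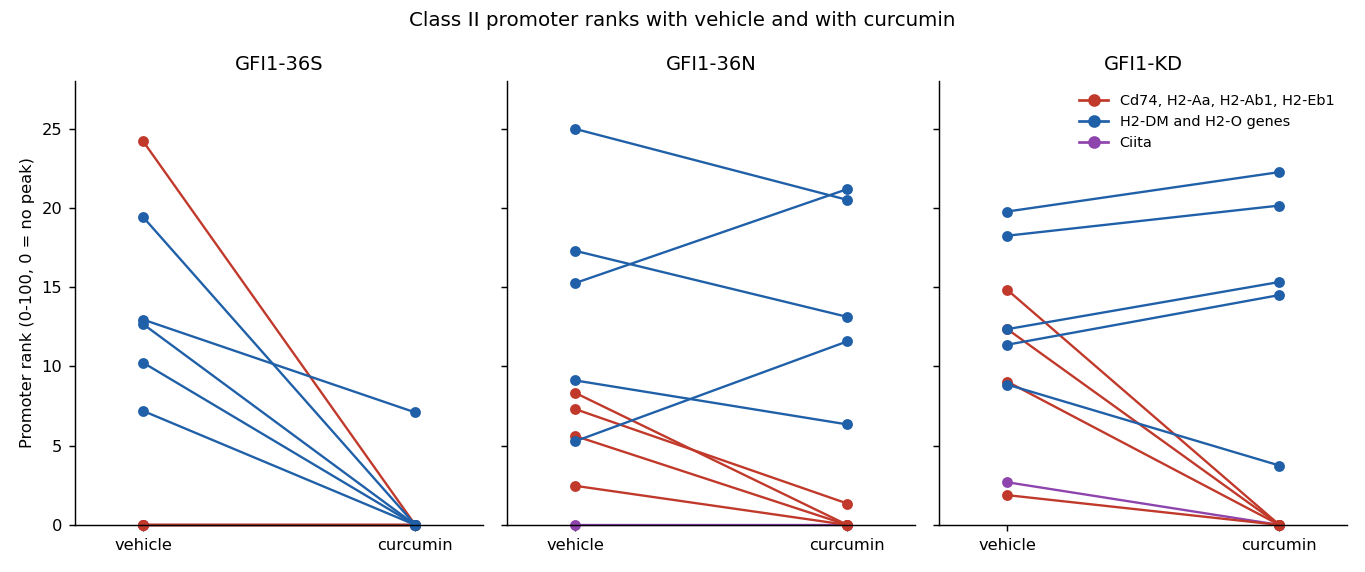
Promoter rank (0 to 100, 0 for no peak) with vehicle and with curcumin in *GFI1-36S*, *GFI1-36N* and *GFI1-KD* cells, 1 library per point, 1 line per class II gene, with *H2-DMa* read at its inner start site. In *GFI1-KD* and *GFI1-36N* cells the lines of *Cd74*, *H2-Ab1* and *H2-Eb1* end at 0, while those of the H2-DM and H2-O genes stay between 3.75 and 24.98.

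The genotypes were compared with vehicle alone, and both comparisons share the *GFI1-36S* vehicle library. *Cd74*, *H2-Aa* and *H2-Eb1* had a promoter peak in *GFI1-36N* and not in *GFI1-36S* cells, 3 of 9 members. The same genes with *Ciita* did so in *GFI1-KD* cells, 4 of 10. Of all genes with a promoter peak in either library of the comparison, 3.03% and 5.33% did. No member had a peak in *GFI1-36S* cells that it lacked in *GFI1-36N* or *GFI1-KD* cells. On the same base 3.4% and 2.1% of genes did, so for so few members none is near these shares. *H2-Ab1* went the other way. Its rank interval in *GFI1-36S* vehicle cells (18.3 to 33.1) lay wholly above that in *GFI1-36N* (0.018 to 8.91) and in *GFI1-KD* cells (11.5 to 18.1), while of all genes marked in both libraries of the comparison 3.26% and 2.07% lay so, and no member lay wholly the other way (5.89% and 5.91%). The peak behind the *GFI1-36S* rank had its summit 1426 bp inside the gene. The rank difference of *GFI1-36N* to *GFI1-36S*, −21.7, was −2.77 with windows of 500 bp and −2.93 with the summit required inside the window, and at the start-site peak the height ratio was 0.671 (0.369 to 1.21). With missing peaks at rank 0, 4 of 9 members ranked lower in *GFI1-36N* and 4 of 10 in *GFI1-KD* cells than in *GFI1-36S* cells. Of all genes with a promoter peak in either library, 53.6% and 42.7% did.

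The *H2-Ab1* difference rested on different quantities in the 2 comparisons. At the inner site the summit height was lower in *GFI1-36N* than in *GFI1-36S* vehicle cells (39 against 72 fragments, height ratio 0.443, 0.292 to 0.663), and the peak there did not reach into the 1 kb window in *GFI1-36N* cells. In *GFI1-KD* cells the height could not be separated from that in *GFI1-36S* cells (92 against 72 fragments, ratio 1.01, 0.732 to 1.39), while the fold enrichment was lower (7.83 against 12.3). The local background at this site was 1.75 times the genome background in *GFI1-KD* vehicle cells, and equal to it in *GFI1-36S* vehicle cells. Ranked by peak width in place of fold enrichment, *H2-Ab1* was 25.1 rank units higher in *GFI1-KD* than in *GFI1-36S* cells.

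The proteins that act on class II promoters were marked throughout. All 7 genes of the X-Y complex (*Rfx5*, *Rfxap*, *Rfxank*, *Nfya*, *Nfyb*, *Nfyc*, *Creb1*) had a promoter peak in all 6 libraries, with median ranks of 80.0 to 94.5, and no rank interval was separate in any of the 5 comparisons. Of 13 regulators that act upstream of *Ciita*, 9 to 12 had one. *Irf4*, a factor of B cells and dendritic cells, had none in *GFI1-36S* cells, ranks of 8.33 and 6.34 in *GFI1-36N* cells with vehicle and curcumin, 14.4 in *GFI1-KD* vehicle and none in *GFI1-KD* curcumin cells. *Spi1*, which encodes the myeloid and B cell factor PU.1, ranked 89.6 to 99.0 in 5 libraries and had no promoter peak in *GFI1-36S* curcumin cells. *Socs1*, an inhibitor of interferon signalling, ranked 67.4 in *GFI1-KD* vehicle and 29.8 in *GFI1-KD* curcumin cells.

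The class I and antigen-processing genes of the same region (*Tap1*, *Tap2*, *Psmb8*, *Psmb9*, *Tapbp*, *H2-K1*) had promoter peaks in all 6 libraries, 6 of 6, with median ranks of 49.0 to 73.1. *Tap1* and *Psmb9* share one promoter and one peak. *H2-Eb2*, a class II gene next to *H2-Eb1*, had none in any library. Of the 6 class I and antigen-processing genes, *Tap1*, *Tap2*, *Psmb8* and *Psmb9* lie in the class II stretch, at ranks of 30.9 to 77.7. The covered bases of the stretch thus held both these promoters and the more weakly marked class II ones.

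Markers of cells that make class II molecules were read in the same libraries. Of 8 B cell markers, 1, 3 and 4 had a promoter peak with vehicle in *GFI1-36S*, *GFI1-36N* and *GFI1-KD* cells, and 0, 1 and 2 with curcumin. *Ms4a1* and *Pax5*, which mark B cells, had no promoter peak in any library, and the summed rank of the list was 19.8, 26.8 and 35.8 with vehicle and 0, 22.5 and 30.8 with curcumin. *Cd79b*, a part of the B cell receptor, went against this in *GFI1-KD* cells, with ranks of 15.0 and 29.3. Of 8 dendritic cell markers, 4, 5 and 5 had one with vehicle and 3, 4 and 4 with curcumin, *Xcr1* and *Clec9a* had none in any library, and the summed rank was 97.7, 83.6 and 97.2 with vehicle and 60.6, 88.2 and 101.3 with curcumin. *Tcf4*, a factor of plasmacytoid dendritic cells, ranked 53.5 with vehicle and 80.5 with curcumin in *GFI1-KD* cells. Of the 8 monocyte and macrophage markers, 8, 8 and 8 had one with vehicle and 0, 7 and 8 with curcumin, with summed ranks of 103.9, 199.1 and 160.8 and of 0, 121.0 and 189.9. With the treatments as labelled, the counts of B cell and dendritic cell markers were lower with curcumin in all 3 pairs. The share of all protein-coding genes with a promoter peak went from 51.9% to 44.3% in *GFI1-36S*, 51.7% to 53.8% in *GFI1-36N* and 53.6% to 50.6% in *GFI1-KD* cells. Markers without the peak with curcumin were weak with vehicle: *Blnk* (1.88), *Cd22* (0.43) and *Siglech* (2.47) in *GFI1-36N*, *Cd79a* (1.09), *Ebf1* (8.40) and *Itgax* (3.84) in *GFI1-KD* cells. In *GFI1-36S* cells they were *Cd79b* (19.8) and *Zbtb46* (26.5). The summed ranks of the dendritic cell markers were higher with curcumin in *GFI1-36N* and *GFI1-KD* cells. The part of cell composition in the class II values was not tested.

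**Figure D5:**
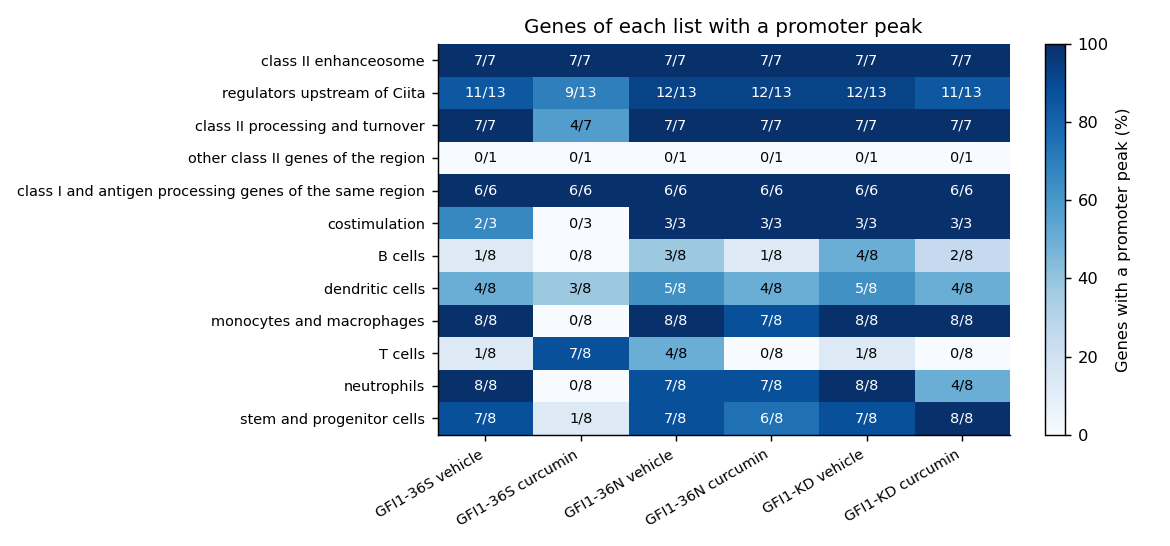
Number of genes with a promoter peak out of those measured for each gene list (rows) in the 6 libraries (columns), shaded by percent. The 7 genes of the X-Y complex and the 6 class I pathway genes are marked in every library, while the monocyte, neutrophil and T cell rows set the *GFI1-36S* curcumin library apart.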

How the data were processed

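H3K9ac ChIP-seq peaks of 6 libraries (3 genotypes, vehicle or curcumin, 1 library each) were read from the deposited narrowPeak lists. The input and IgG samples were not analysed here. Per the labels, reads were processed with Trim Galore, BWA, SAMtools, Picard, MACS2 and deepTools on mm10 (versions and the control used for calling are not given in the sources used here). In the lists deposited by the authors, column 7 holds the fold enrichment at the summit (a linear ratio), columns 8 and 9 its −log10 p-value and −log10 q-value, column 5 a score derived from the latter, and column 10 the summit. Start sites were those of protein-coding genes in the basic set of GENCODE M21 (GRCm38.p6), without the mitochondrial chromosome. A promoter peak overlapped 1 kb on either side of a start site by at least 1 bp.

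Fragment numbers at each summit were recovered from the fold enrichment and −log10 p-value, which gave whole numbers (tolerance 0.005) in 100% of peaks. Intervals are exact 95% Poisson intervals, or exact binomial intervals for ratios, and cover counting error only. With 1 library per group they hold no spread between mice. Reads carried no molecular identifiers. Height is the number of summit fragments over the genome background of that library. The depth that sets these intervals was 23 to 92 fragments at the inner H2-Ab1 site. Summits within 500 bp were joined as 1 site. With 1 library per group no test was made. The counts by role under other windows and without the GFI1-36S pair were added after seeing the data. The fragment recovery and ranking were tested on simulated data. The members, gene lists and named genes were chosen with earlier results of these data known. All members were named, with, of each other list, at most 3 genes a pair that had a peak in 1 of its libraries or the widest rank change, and the 5 genes with the most similar profile. Marker genes without a peak in any library and the members of short lists were named as well. Alternatives were another ranking measure, other windows, summit position, a stricter threshold, equal list lengths, other gene sets, another scaling and exchanged GFI1-36S labels. Also added after seeing the data were H2-DMa without the start site near Brd2, and the comprehensive annotation. Python 3.11.15, numpy 2.4.6, scipy 1.17.1, pandas 2.3.3 and matplotlib 3.10.9 were used.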

Additional observations from a re-analysis of the deposited data

How the results depend on the processing

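No paired test was made. With 1 library for each genotype and treatment, the genotypes gave 3 pairs, over which an exact sign permutation cannot go below p = 0.25. A fit over the 3 pairs with genotype as a term was not run. The counts of members with a promoter peak stayed within 1.5 times of the reported ones under other windows, summit positions, thresholds, list lengths and annotations. Reading *H2-DMa* at its inner start site left 1 member with a promoter peak in *GFI1-36S* curcumin cells. Exchanging the *GFI1-36S* treatments turned the members' median rank change to 8.71, with 0 members lower. The median rank change of members depended on peaks absent in 1 library: limited to genes marked in both libraries it was 0.27 in *GFI1-36N* and 1.90 in *GFI1-KD* cells for curcumin minus vehicle, and −1.45 (*GFI1-36N*) and −0.39 (*GFI1-KD*) for vehicle libraries against *GFI1-36S* (2.30 and 1.40 as reported). With the comprehensive annotation it was 0.13 in *GFI1-36N* cells, and −1.26 for *GFI1-36N* against *GFI1-36S* vehicle. Requiring the summit inside the window gave 0.16 in *GFI1-KD* cells, with 4 members lower.

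Scaled to the promoters shared by all 6 libraries, the median log2 height ratio of members was 0.26 in *GFI1-36S* (−0.57 unscaled) and −0.17 in *GFI1-36N* cells (0.16 unscaled). The *H2-Ab1* rank change in *GFI1-36N* cells was 1.16 with windows of 3 kb and 10.01 with the comprehensive annotation, and for *GFI1-KD* against *GFI1-36S* vehicle 25.1 ranked by width and 9.36 with windows of 500 bp. That of *H2-Eb1* with the comprehensive annotation was 0.13 in *GFI1-36N* cells and −4.07 for *GFI1-36N* against *GFI1-36S* vehicle. At a −log10 q of at least 5 no library kept a pIV peak, and the class II stretch was covered over 12.1%, 13.7% and 14.3% with vehicle and 7.997%, 12.8% and 12.3% with curcumin in *GFI1-36S*, *GFI1-36N* and *GFI1-KD* cells. With equal numbers of top peaks the covered shares were 11.3%, 12.3% and 13.1% with vehicle, and 11.4% and 11.3% with curcumin in *GFI1-36N* and *GFI1-KD* cells. The causes of these shifts were not tested.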

Other observations

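Genes that process antigen for class II molecules outside the MHC were marked more strongly than the class II genes. All 7 that were measured (*Ctss*, *Ctsl*, *Ctsb* and *Lgmn*, lysosomal proteases, *Sppl2a*, which cleaves the invariant chain remnant, and *March1* and *March8*, ubiquitin ligases that remove class II molecules from the surface) had a promoter peak in 5 libraries, with median ranks of 30.9 to 40.8. In *GFI1-36S* curcumin cells 4 of 7 had one, and *Ctss*, *March1* and *March8* had none. Of the costimulatory genes, *Cd80* and *Cd86* had promoter peaks in the 5 libraries other than *GFI1-36S* curcumin, at ranks of 9.99 to 14.2 and of 6.61 to 23.6, and *Cd40* in the 4 *GFI1-36N* and *GFI1-KD* libraries, at 2.14 to 6.18.

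Over the 6 libraries, the genes whose ranks followed the members' median most closely were *Cxcl10*, *Nras*, *Myo18a*, *Art3* and *Il27*, after removal of each gene's own mean, with mean absolute differences of 0.850 to 1.12 rank units. Among the 12547 genes compared, 967 came within 3 rank units, so the likeness is a description of 6 libraries. *Cxcl10* and *Art3* are neighbours in the genome.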
